A study of Mus musculus with 8 samples.

Results

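The Zscan4 family is a cluster of near-identical genes on mouse chromosome 7. The 7 copies described here (Zscan4a, Zscan4b, Zscan4c, Zscan4d, Zscan4e, Zscan4f and Zscan4-ps3) were taken by name from 55418 genes in the deposited RNA-seq count tables. The tables hold 9 copies in all, and the remaining pair, Zscan4-ps1 and Zscan4-ps2, was used for comparison. The experiment asked how the transcriptome of mouse E14 embryonic stem cells (ESCs) changes when members of the HIRA histone chaperone complex are depleted. E14 is a male 129-derived line, grown here without feeder cells on gelatin in serum and LIF.

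There were 8 libraries in 4 groups of 2: control, and cells carrying a short hairpin RNA (shRNA) against Hira, Ubn1 or Ubn2. All cells had the wild-type genotype. They received 1000 ng of a pSuper-puro plasmid and, per the sample labels, 1 µg/ml puromycin from 24 h after transfection for 3 days. The labels call the control cells wild type, and the study's methods describe a control hairpin against luciferase. The depleted cells were transfected populations under selection, not clones. Which hairpin of each gene was used for RNA-seq is not given in the sources used here.

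Zscan4 genes encode DNA-binding proteins with a SCAN domain and zinc fingers. They are transcribed in the 2-cell embryo, when the mouse genome is first activated. In ESC cultures they appear in bursts in rare cells that resemble the 2-cell stage, and the protein is known for its part in telomere lengthening and genome stability. Zscan4d is known as the main copy of the 2-cell embryo and Zscan4c as a main copy of ESCs. The transcription factor Dux activates the family, and chromatin regulators such as the CAF-1 chaperone keep it silent in most ESCs. HIRA is another chaperone complex, which deposits the histone variant H3.3, with Ubn1 and Ubn2 as its H3.3-binding subunits.

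In the GENCODE M21 annotation of GRCm38, the 7 copies lie between 10794242 and 11614112 on chromosome 7, an interval of 819871 bp. Zscan4a lies at chr7:10794242-10799057 on the minus strand and is annotated as an unprocessed pseudogene. The copies annotated as protein coding on the minus strand are Zscan4b at chr7:10900740-10905050, Zscan4d at chr7:11161374-11166159 and Zscan4e at chr7:11306378-11310682. Those on the plus strand are Zscan4c at chr7:11005745-11010547, Zscan4f at chr7:11397915-11402318 and Zscan4-ps3 at chr7:11609308-11614112. Zscan4-ps3 is thus a pseudogene by its name and a coding gene in this annotation. Each reference transcript has 4 exons. The coding part is 1515 bases long in Zscan4b and Zscan4e and 1518 bases in Zscan4c, Zscan4d, Zscan4f and Zscan4-ps3.

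The sequences just before the start sites show how alike the copies are. RefSeq promoter sequences (GRCm38.p6) were matched for 4 of the 7 copies. Printed 5′ to 3′ on the strand of each gene are the 171 bases around the TATA box that the 4 share. The TATA letters began 31 bases before the start given by RefSeq in Zscan4b and Zscan4f, 54 bases before it in Zscan4c and 65 in Zscan4d, whose RefSeq start differs from the GENCODE one above. Capitals mark the letters TATAAAA and TGATTNAAT, the latter on either strand. TGATTNAAT is the left part of the known recognition sequence of Dux, which goes on with CA, and this shorter form was chosen after the sequences were seen.
Zscan4b, chr7:10905051-10905221, minus strand: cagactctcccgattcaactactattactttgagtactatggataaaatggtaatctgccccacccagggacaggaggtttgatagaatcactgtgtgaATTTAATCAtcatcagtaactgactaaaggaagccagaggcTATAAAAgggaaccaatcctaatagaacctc
Zscan4c, chr7:11005551-11005721, plus strand: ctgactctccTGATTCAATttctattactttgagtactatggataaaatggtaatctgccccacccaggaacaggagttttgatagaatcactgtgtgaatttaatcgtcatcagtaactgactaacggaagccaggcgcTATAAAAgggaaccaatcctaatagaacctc
Zscan4d, chr7:11166183-11166353, minus strand: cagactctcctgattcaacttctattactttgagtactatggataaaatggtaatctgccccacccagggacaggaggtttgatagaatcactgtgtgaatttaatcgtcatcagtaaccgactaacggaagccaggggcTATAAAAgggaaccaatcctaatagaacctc
Zscan4f, chr7:11397744-11397914, plus strand: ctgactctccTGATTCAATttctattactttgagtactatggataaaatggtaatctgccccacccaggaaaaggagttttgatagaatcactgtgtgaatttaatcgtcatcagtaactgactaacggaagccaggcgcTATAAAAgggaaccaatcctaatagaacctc

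Counted from 1 at the 5′ end of the printed stretch, with the Zscan4c base first, Zscan4f differed from Zscan4c by 1 base (C72A). Zscan4d differed by 6 bases (T2A, T19C, A70G, T78G, T120C and C138G), of which T19C lies in the letters marked in Zscan4c. Zscan4b differed by 10 bases (T2A, T11C, T19C, T21A, A70G, T78G, G108A, C127A, G137A and C138G), and G108A completes its match on the opposite strand. TATAAAA was in all 4 promoters of the family and in 5.48% of the 32851 promoters of the same length, searched on both strands. TGATTNAAT was in 3 of the 4 and in 0.718% of all promoters. The longer form with CA was in none of the 4 and in 0.0335% of all. TGCACAC, letters known from the Zscan4c binding motif, was in none of the 4 and in 4.40% of all. Such matches describe letters in a window and were not tested as binding sites.

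The transcripts were alike too, which limits how well a read can be given to 1 copy. Over the 21 pairs of copies, identity of the reference transcripts ranged from 96.6% to 99.7%, with a median of 97.6%. Zscan4b and Zscan4e formed the closest pair. Of all 100-base windows of a transcript, the share found in no other copy was 70.4% in Zscan4d, 60.9% in Zscan4a and 47.8% in Zscan4-ps3. It was 27.2% in Zscan4c, 21.3% in Zscan4b, 15.9% in Zscan4e and 10.5% in Zscan4f. The authors' treatment of reads that match several places is not given in the sources used here. Values of single copies are therefore uncertain, and each result is also given for the summed counts of the 7 copies.

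**Figure D1:**
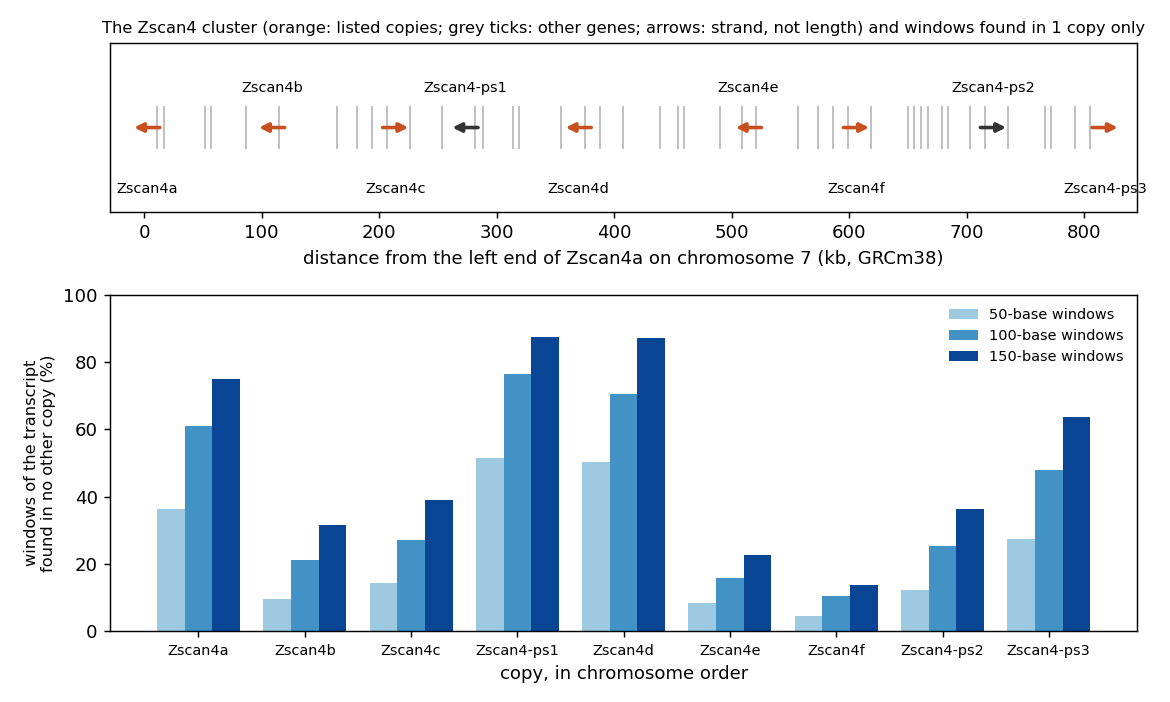
Upper panel: positions of the 9 Zscan4 copies in the tables, as distance in kb from the left end of Zscan4a, with arrows giving the strand and grey ticks the other annotated genes between them. Lower panel: percent of 50-, 100- and 150-base windows of each reference transcript that occur in no other copy; at 100 bases Zscan4d is at 70.4% and Zscan4f at 10.5%.

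Total counts ranged from 19710040 to 32706053 per library, and CPM below are counts scaled to a common library total after TMM normalization. The targeted genes were lower in their own depletions, with log2 fold changes of -3.22 for Hira, -1.03 for Ubn1 and -0.90 for Ubn2. The summed level of 6 pluripotency markers ranged from 3519 to 3782 CPM over the 8 libraries, and by edgeR's test 0 of them were called in any comparison with control. The sum hides single markers. Klf4 had 130 and 145 CPM in the Ubn2 libraries and 189 and 220 CPM in the control libraries. In that comparison 3 of the 6 markers had a positive log2 fold change. Nothing in the labels says whether the 2 libraries of a group came from separate cultures, so p-values measure the spread between these libraries, which may be technical. The smallest two-sided p of an exact permutation test is 0.333 at this size, so models over the whole table were used.

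Zscan4 transcripts rose after each of the 3 depletions. In control cells the 7 copies together had 9.15 and 4.87 CPM, from 188 and 155 reads. Hira depletion brought the sum to 35.1 and 25.9 CPM. In Ubn1-depleted cells it was 22.8 and 23.2 CPM, and in Ubn2-depleted cells 34.7 and 51.4 CPM. All 6 depleted libraries were thus above both control libraries, the lowest at 22.8 CPM and the higher control at 9.15 CPM. Even at their highest the 7 copies took 0.00511% of a library's counts, and at their lowest 0.000474%. In bulk RNA, more cells that express Zscan4 and more Zscan4 RNA in each cell cannot be told apart.

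Group means of the sum were 7.01 ± 3.03 CPM in control, 30.5 ± 6.51 after Hira depletion, 23.0 ± 0.252 after Ubn1 depletion and 43.0 ± 11.8 after Ubn2 depletion (SD, n = 2 each). The control libraries differed 1.88-fold (95% interval from counting error 1.51 to 2.34) and the Ubn2 libraries 1.48-fold (1.35 to 1.63). The Hira libraries differed 1.36-fold (1.22 to 1.5), and the Ubn1 libraries 1.02-fold (0.901 to 1.15). Every pair except the Ubn1 pair therefore differed beyond counting error. Against control, the sum had a log2 fold change of 2.16 (standard error 0.20) after Hira depletion, with an adjusted p of 8.95e-08. It was 1.75 (standard error 0.18, adjusted p = 1.64e-07) after Ubn1 depletion. After Ubn2 depletion it was 2.67 (standard error 0.20, adjusted p = 1.57e-09). These correspond to 4.46-fold, 3.36-fold and 6.34-fold higher levels. All adjusted p-values are Benjamini-Hochberg values of the quasi-likelihood test in edgeR, over every row tested. The 3 comparisons share the same control libraries.

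**Figure D2:**
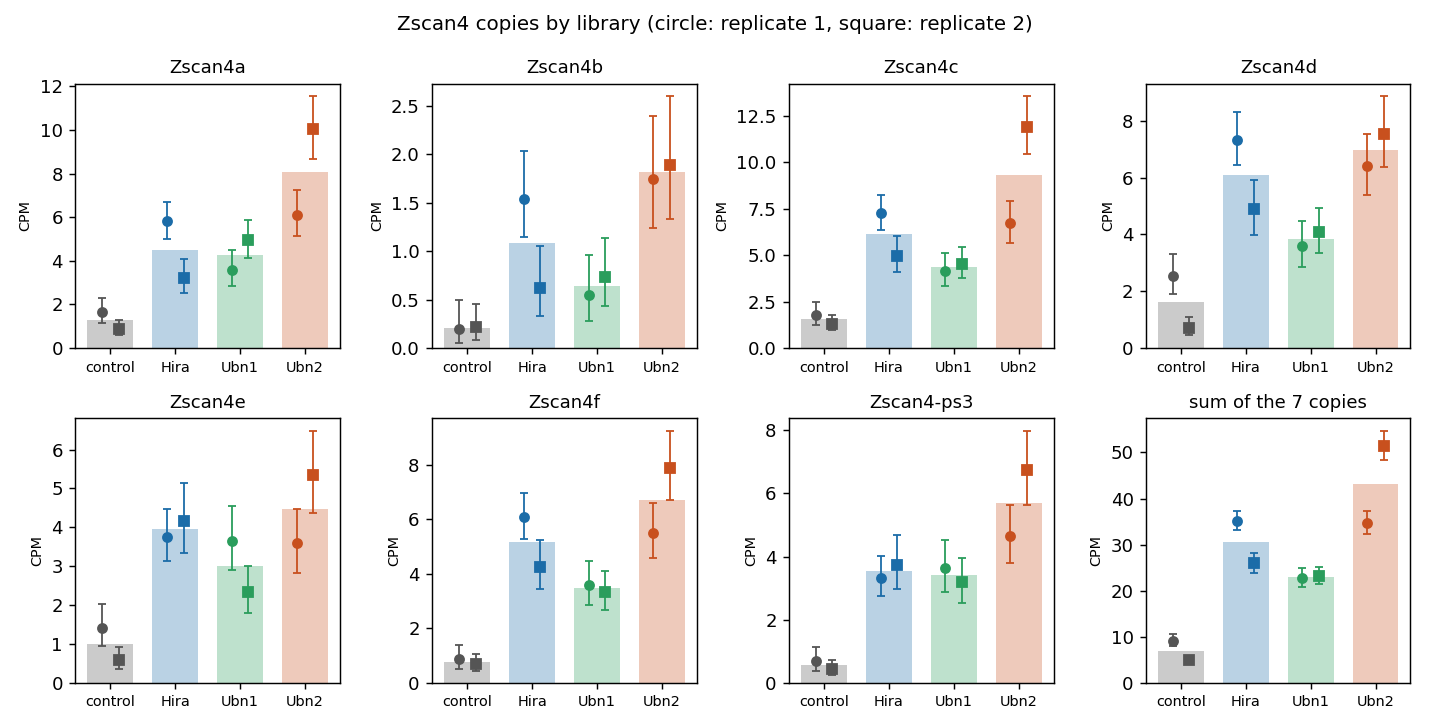
CPM of each Zscan4 copy and of their sum in the 8 libraries, with circles for replicate 1, squares for replicate 2, bars for the mean of each group and error bars for the 95% counting interval. In every panel both libraries of each depletion lie above both control libraries; the sum is 4.87 to 9.15 CPM in control and 22.8 to 51.4 CPM after depletion.

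The values of single copies follow, beginning with the copies best known from ESCs and embryos. Zscan4c had 1.80 and 1.32 CPM in control cells and 7.26 and 4.98 CPM after Hira depletion. It had 4.15 and 4.53 CPM in Ubn1-depleted cells, and 6.71 and 11.9 CPM in Ubn2-depleted cells. The second Ubn2 library stood above all others, and no depleted library overlapped the controls. Zscan4d had 2.53 and 0.723 CPM in control cells, the widest gap between the control libraries of any copy. It had 7.33 and 4.89 CPM after Hira depletion, 3.60 and 4.07 CPM in Ubn1-depleted cells, and 6.39 and 7.54 CPM in Ubn2-depleted cells. Hira and Ubn2 libraries overlapped for Zscan4d, and both lay above those of Ubn1.

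Zscan4f is the copy with the fewest windows of its own. It had 0.876 and 0.692 CPM in control cells, 6.08 and 4.27 after Hira depletion, 3.60 and 3.34 in Ubn1-depleted cells, and 5.52 and 7.90 in Ubn2-depleted cells. Its control libraries were close together, and all depleted libraries were well above them. Zscan4-ps3 had 0.682 and 0.440 CPM in control cells, 3.33 and 3.75 after Hira depletion, 3.65 and 3.19 in Ubn1-depleted cells, and 4.64 and 6.73 in Ubn2-depleted cells. The Hira and Ubn1 libraries of Zscan4-ps3 overlapped, and the Ubn2 libraries were higher.

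Zscan4a, the annotated pseudogene, had 1.66 and 0.880 CPM in control cells. It had 5.81 and 3.23 CPM after Hira depletion, 3.60 and 4.95 in Ubn1-depleted cells, and 6.11 and 10.0 in Ubn2-depleted cells. Here too the second Ubn2 library was the highest. Zscan4e had 1.41 and 0.597 CPM in control cells, 3.75 and 4.17 after Hira depletion, 3.65 and 2.34 in Ubn1-depleted cells, and 3.59 and 5.35 in Ubn2-depleted cells. Its Ubn1 and Ubn2 libraries overlapped. Zscan4b was the lowest copy, with 4 and 7 reads (0.195 and 0.220 CPM) in control cells. It had 1.54 and 0.617 CPM after Hira depletion, 0.547 and 0.730 in Ubn1-depleted cells, and 1.75 and 1.89 in Ubn2-depleted cells. Both libraries of each depletion were above both controls for all 7 copies. Among all tested genes, 35.6% had that property in Hira-depleted cells, 26.5% in Ubn1-depleted cells and 34.7% in Ubn2-depleted cells, so this criterion alone is met often.

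Levels of different copies are given per length, as CPM per kb of annotated exon. The length over which reads could be given to each copy is unknown. The share of 100-base windows found in no other copy ran from 10.5% in Zscan4f to 70.4% in Zscan4d. The order of the copies is therefore uncertain. In control cells Zscan4d had the highest mean level (0.716 CPM per kb) and Zscan4c the next (0.686). Zscan4c led after Hira depletion (2.69 CPM per kb, with Zscan4d at 2.69), after Ubn1 depletion (1.91) and after Ubn2 depletion (4.09). Neighbours in these orders overlapped between libraries, except Zscan4f and Zscan4-ps3 in control cells and Zscan4b and the copy above it in each group. Zscan4b was the lowest in every group, at 0.115 CPM per kb in control, 0.599 after Hira depletion, 0.354 after Ubn1 depletion and 1.01 after Ubn2 depletion. Its libraries lay below those of every other copy in each of these groups.

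All 7 copies passed the filter on low counts in every comparison. In each comparison with control, Zscan4b passed it through the depleted libraries alone, so it had to be higher. Its direction there adds nothing to that of the other copies. A gene was called when the adjusted p was under 0.05 and the fold change over 1.5. After Hira depletion all 7 copies were called higher, against 10.8% of the 19035 genes tested. Their log2 fold changes ranged from 1.90 for Zscan4a (standard error 0.34, adjusted p = 0.000194) to 2.74 for Zscan4f (standard error 0.31, adjusted p = 1.29e-06). The median over the copies was 2.03, beside 0.01 over all genes tested. Zscan4c (2.00), Zscan4d (2.01) and Zscan4e (2.03) lay close together, with Zscan4b at 2.38 and Zscan4-ps3 at 2.67. Without the first Hira library, Zscan4b was no longer called (log2 fold change 1.52, adjusted p = 0.233). DESeq2's Wald test called 6 copies, with Zscan4d at an adjusted p of 0.0901. Beside Zscan4, the trophoblast markers Cdx2 (2.82) and Hand1 (1.82) were called higher in Hira-depleted cells. The summed level of the 5 markers of that list was 14.1 to 16.5 CPM there, 9.59 to 9.64 in control, 10.6 to 11.3 after Ubn1 depletion and 9.99 to 10.2 after Ubn2 depletion. Between 3 and 5 of its 5 genes had reads in a library, and Elf5 had at most 0.182 CPM. Cdx2 passed the filter through the Hira libraries alone, so it had to be higher. Of the other marker lists, Sox17 (1.18) was called higher among 6 primitive endoderm markers and Col1a1 (0.67) among 2 tested fibroblast markers. Of those 6 endoderm markers, 3 had a positive log2 fold change, and the list median was -0.03. Their summed level was 16.0 and 16.1 CPM after Hira depletion, within the 14.8 to 16.9 CPM of control. Of the list of primed pluripotency, Otx2 (0.67) was called higher and Pou3f1 (-0.91) lower. That list of 4 genes summed to 26.1 to 28.4 CPM in control and 34.6 to 48.1 CPM in the 6 depleted libraries, with reads for 3 or 4 of its genes in a library. Otx2 was also called higher after Ubn1 (0.73) and Ubn2 (0.97) depletion, and T (-2.36) was called lower after Ubn2 depletion. In that comparison T passed the filter through the control libraries alone, so it had to be lower. The part of any of these markers in the Zscan4 values was not tested.

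After Ubn1 depletion 6 of the 7 copies were called higher, against 1.53% of the 18373 genes tested. Log2 fold changes of those called ran from 1.33 for Zscan4d (standard error 0.35, adjusted p = 0.0170) to 2.64 for Zscan4-ps3 (standard error 0.37, adjusted p = 1.25e-05). The median over the copies was 1.64. Zscan4b had a log2 fold change of 1.59 (95% interval 0.29 to 2.89, adjusted p = 0.125) and was not called. Without the second control library, Zscan4d (0.59, adjusted p = 0.429) and Zscan4e (1.07, adjusted p = 0.160) were not called either. DESeq2's Wald test called Zscan4a and Zscan4c only, and gave no adjusted p for Zscan4b, Zscan4e, Zscan4f and Zscan4-ps3 because of its own filter. The primitive endoderm markers Gata6 (-1.10) and Pdgfra (-0.79) were called lower. The summed level of the 6 markers of that list was 9.03 to 10.8 CPM in Ubn1-depleted cells and 14.8 to 16.9 in control, with reads for all 6 in every library, and their part in the Zscan4 values was not tested.

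After Ubn2 depletion all 7 copies were called higher, against 9.59% of the 18219 genes tested. Among them Zscan4b had to be higher, since it passed the filter through the Ubn2 libraries alone. The smallest log2 fold change was 2.20 for Zscan4d (standard error 0.34, adjusted p = 2.79e-05). The largest was 3.38 for Zscan4-ps3 (standard error 0.33, adjusted p = 7.8e-08), a 10.4-fold difference. The median over the copies was 2.72. Zscan4f followed at 3.11 and Zscan4b at 3.08, and Zscan4a (2.72), Zscan4c (2.60) and Zscan4e (2.22) lay below. The calls held without each library in turn and with DESeq2. The Ubn2 libraries also held RNA of a fibroblast marker list. The collagen gene Col3a1 had 4.13 and 6.76 CPM there, 0 reads in control and Ubn1 libraries and at most 0.142 CPM in Hira libraries. Postn and Dcn, other genes of fibroblasts, had reads in the Ubn2 libraries only, with means of 1.02 and 0.559 CPM. Of the 5 genes of the list that were tested, Col3a1, Postn and Col1a2 (2.85) were called higher and Thy1 (-0.65) lower, from 13.8 ± 0.230 CPM in control to 8.84 ± 1.77 (SD, n = 2 each), and Col1a1 (0.28) was not called. The summed level of the 6 markers of that list was 23.9 to 28.0 CPM after Ubn2 depletion, 20.2 to 20.7 in control, 16.3 to 20.6 after Ubn1 depletion and 29.4 to 31.8 after Hira depletion. All 6 genes had reads in the Ubn2 libraries, and 3 or 4 elsewhere. Col3a1, Postn and Col1a2 passed the filter through the Ubn2 libraries alone, so they had to be higher. The part of such RNA in the Zscan4 values was not tested.

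**Figure D3:**
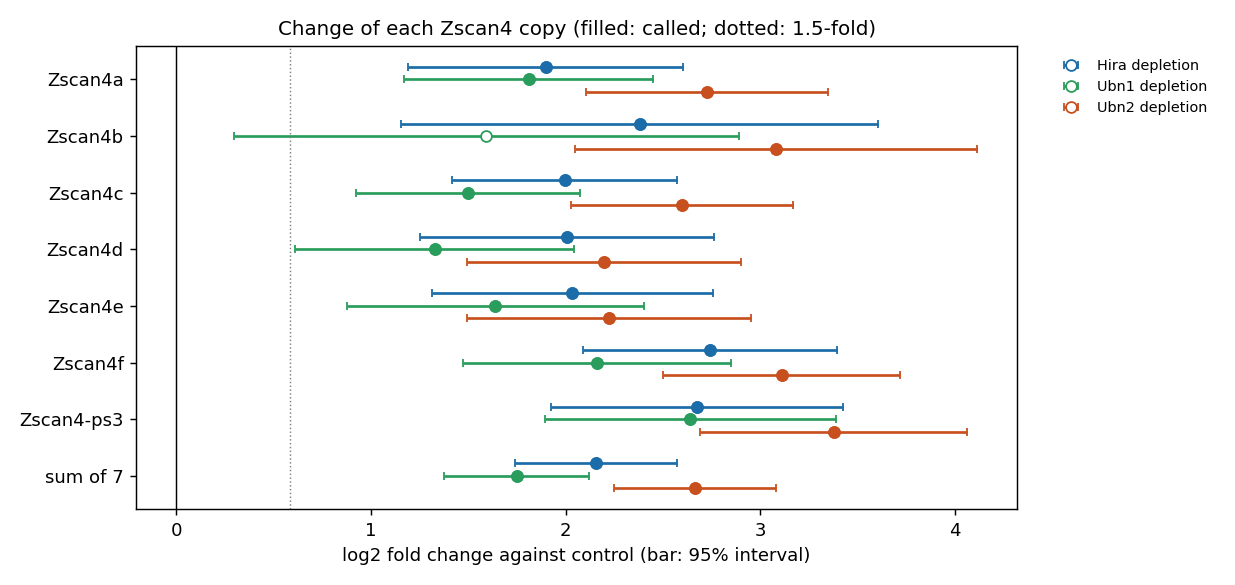
Log2 fold change of each Zscan4 copy and of the summed copies against control, with 95% intervals, after depletion of Hira, Ubn1 and Ubn2. Filled points passed both thresholds and the dotted line marks 1.5-fold; only Zscan4b after Ubn1 depletion (1.59) is open.

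The share of each copy in the Zscan4 RNA separated control from depleted libraries for Zscan4f and Zscan4-ps3 only. Zscan4f took 9.57% and 14.2% of the summed counts in the control libraries and 14.4% to 17.3% in the 6 depleted libraries. Zscan4-ps3 took 7.45% and 9.03% in control libraries and 9.48% to 16.0% in depleted libraries. The exact Clopper-Pearson interval of the Zscan4f share was 5.77% to 14.7% in the first control library, which holds 1 of the 6 depleted shares, and 9.11% to 20.7% in the second, which holds all 6. For the Zscan4-ps3 share the interval was 4.13% to 12.2% in the first control library and 5.03% to 14.7% in the second. Both hold the lowest depleted share of 9.48%. The ranges of the other 5 copies overlapped. Zscan4d took 27.7% of the counts in the first control library and 14.8% in the second, so that the first lay above all depleted libraries, at 14.7% to 20.9%, and the second within their range. No test of shares was made, and intervals cover counting error only.

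**Figure D4:**
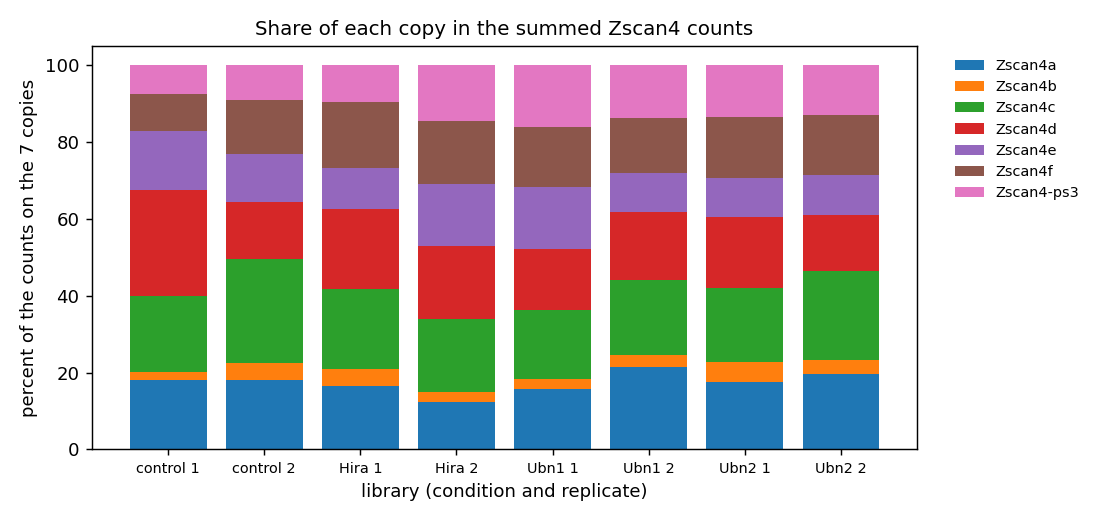
Percent of the counts on the 7 Zscan4 copies that each copy took, by library. Zscan4f and Zscan4-ps3 have smaller shares in both control libraries than in any depleted library, and Zscan4d ranges from 14.8% to 27.7% between the control libraries.

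Compared directly, the depletions differed in how high Zscan4 was. Mean summed levels were lowest after Ubn1 and highest after Ubn2 depletion. The sum after Ubn2 depletion was 1.87-fold that after Ubn1 depletion (95% interval 1.51 to 2.31). Its log2 difference was 0.90 (standard error 0.15, adjusted p = 0.000396). Of the copies, 6 were called higher, against 4.61% of the 18205 genes tested. The same 6 had both Ubn2 libraries above both Ubn1 libraries, as did 29.6% of genes. Differences were largest for Zscan4b at 1.49 (adjusted p = 0.0200) and Zscan4c at 1.09 (adjusted p = 0.00515). Zscan4f differed by 0.95, Zscan4a by 0.90, Zscan4d by 0.85 and Zscan4-ps3 by 0.73. Zscan4e, at 0.58 (95% interval -0.01 to 1.17, adjusted p = 0.174), was not called. The sum stayed past the adjusted p threshold without each library, but without the second Ubn2 library 0 copies were called and the log2 difference of the sum was 0.60. Zscan4b was not called without the first Ubn2 library (1.54, adjusted p = 0.0788), nor Zscan4-ps3 without the second Ubn1 library (0.63, adjusted p = 0.112). Zscan4e was called without the first Ubn1 library (0.92, adjusted p = 0.0174). DESeq2 called 4 copies, without Zscan4b and Zscan4-ps3.

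Hira and Ubn2 depletion were closer. The sum after Hira depletion was 0.719-fold that after Ubn2 depletion (95% interval 0.567 to 0.911), with an adjusted p of 0.0308, and its libraries overlapped those of Ubn2. This is below the fold threshold. Zscan4a (-0.79, adjusted p = 0.0351) and Zscan4-ps3 (-0.68, adjusted p = 0.0402) were called lower after Hira depletion, as were 5.61% of the 18563 genes tested. Both Hira libraries were below both Ubn2 libraries for Zscan4a, Zscan4b and Zscan4-ps3, as for 33.6% of genes. The other 5 copies had log2 differences from -0.68 for Zscan4b to -0.16 for Zscan4d. These calls rested on the second Ubn2 library, without which the sum differed by -0.17 (adjusted p = 0.371) and 0 copies were called. Zscan4a was not called without the second Hira library (-0.46, adjusted p = 0.117), nor Zscan4-ps3 without the first (-0.59, adjusted p = 0.103), and 1 and 3 copies in all were then called. DESeq2 called 0 copies, with the sum at -0.50 (adjusted p = 0.312).

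Hira and Ubn1 depletion differed by 0.42 on the log2 scale for the sum (standard error 0.13, adjusted p = 0.0209), or 1.34-fold (95% interval 1.11 to 1.62). The Hira libraries, at 25.9 and 35.1 CPM, lay above the Ubn1 libraries, and the difference was below the fold threshold. Zscan4d was the only copy called, higher after Hira depletion by 0.69 (standard error 0.24, adjusted p = 0.0356), as were 9.52% of the 18819 genes tested. Both Hira libraries were above both Ubn1 libraries for Zscan4c, Zscan4d, Zscan4e and Zscan4f, as for 32.3% of genes. Zscan4-ps3 (0.06, 95% interval -0.48 to 0.59) and Zscan4a (0.11, 95% interval -0.44 to 0.66) had the smallest differences. Without the first Hira library the sum differed by 0.18 (adjusted p = 0.554), and without it or without the first Ubn1 library 0 copies were called. Without the second Hira library Zscan4c, Zscan4d and Zscan4f were called. DESeq2 called 0 copies, with the sum at an adjusted p of 0.0939. With all 8 libraries in one fit, neither Zscan4d (0.68, adjusted p = 0.0954) nor the sum (0.42, adjusted p = 0.0946) passed.

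The copies outside the list moved in the same direction. Zscan4-ps2 was called higher in each comparison with control, at 2.20, 1.78 and 2.37 after Hira, Ubn1 and Ubn2 depletion. Zscan4-ps1 was called after Hira (2.34) and Ubn2 (2.86) depletion, and had a log2 fold change of 1.34 (adjusted p = 0.167) after Ubn1 depletion. It passed the filter through the depleted libraries alone in each comparison with control, so it had to be higher. The genes between and around the copies, among them vomeronasal receptor genes and many predicted genes, had few reads. Of the 101 other genes annotated within 500 kb of the cluster, 44 of them between copies, only Zik1 and Gm6900 passed the filter. For Zik1, a zinc finger gene, the log2 fold change was -0.11 with Hira, -0.18 with Ubn1 and -0.25 with Ubn2 depleted. For Gm6900 it was -0.02, -0.07 and -0.20. By edgeR's test neither was called, and in the 3 comparisons with control neither had an unadjusted p under 0.05.

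Other genes of the 2-cell-like state were set beside Zscan4. The list held 36 genes, among them the activator Dux (Duxf3 in the tables), the Usp17l deubiquitinase family, Tdpoz and Tcstv genes. Their summed level was 12.5 and 10.9 CPM in control cells and 45.3 and 42.6 with Hira depleted. It was 28.7 and 27.6 CPM in Ubn1-depleted and 51.4 and 62.7 in Ubn2-depleted cells. The groups kept the same order as for Zscan4, and no depleted library overlapped the controls. Most listed genes were too low to test. After Hira depletion 14 of 16 tested genes were called higher and 0 lower, with a median log2 fold change of 2.00, where 10.8% of all tested genes were called higher. After Ubn1 depletion it was 8 of 12, with a median of 1.37, against 1.53% of all. After Ubn2 depletion it was 15 of 16, with a median of 2.55, against 9.59% of all. A gene that passes the filter through the depleted group alone had to be higher, and with at least 10 counts in every library 5 of 6 genes were called in each of the 3 comparisons. Without the second control library 8 genes were called after Hira and 2 after Ubn1 depletion, and without the second Ubn2 library 9 after Ubn2 depletion. For Ubn1, leaving out any of the other libraries left 4 or 5.

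Zfp750, a zinc finger gene best known from epidermis, had 3.07 and 4.56 CPM in control cells. Its log2 fold change was 1.66 (adjusted p = 4.52e-06) after Hira depletion, 1.10 after Ubn1 depletion and 1.91 after Ubn2 depletion. Gm5662 had log2 fold changes of 2.05, 1.22 and 2.25 in the same order, and Gm8300 had 1.97, 1.43 and 2.52. Gm2016 rose by 2.85 after Hira depletion, Gm8994 by 1.84 after Ubn1 depletion and Usp17lb by 3.15 after Ubn2 depletion. Gm12794 had 0 reads in both control libraries and 0.842 CPM on average after Hira depletion, which is at least 7.01-fold higher when the control is set at 3 counts per library. After Ubn2 depletion, at 1.08 CPM, it was at least 8.96-fold higher. In both comparisons Gm12794 passed the filter through the depleted libraries alone, so it had to be higher. Duxf3 itself was near the limit of detection, with 1 and 0 reads in control, 8 and 5 after Hira depletion, 1 and 2 in Ubn1-depleted cells, and 5 and 7 in Ubn2-depleted cells. Pooled over libraries, its level was 12.6 times that of control after Hira depletion (95% interval from counting error 1.89 to 534) and 15.2 times after Ubn2 depletion (2.25 to 649), and 3.27 times after Ubn1 depletion (0.263 to 172). Both Hira and both Ubn2 libraries lay above both controls. It did not pass the filter and was not tested across replicates.

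**Figure D5:**
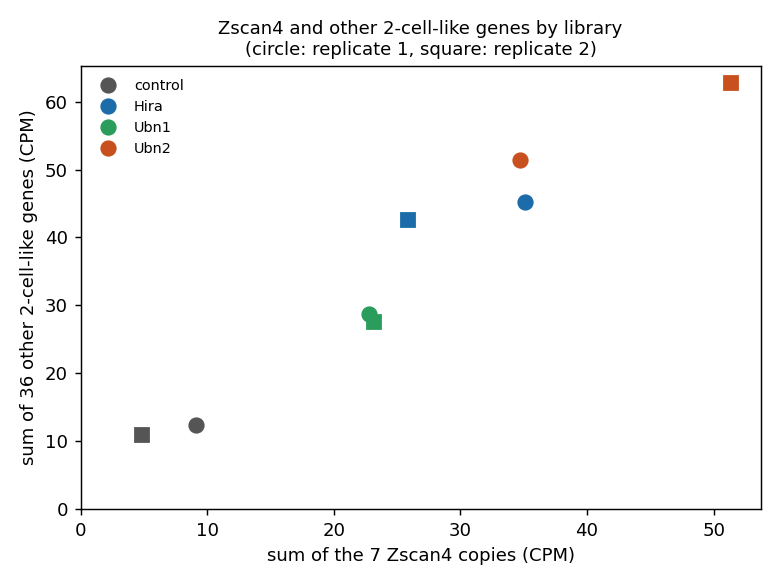
Summed CPM of the 7 Zscan4 copies (x axis) and of 36 other genes of the 2-cell-like state (y axis) in each library, coloured by group, with circles for replicate 1 and squares for replicate 2. Control libraries lie lowest on both axes (4.87 to 9.15 and 10.9 to 12.5 CPM) and the second Ubn2 library highest (51.4 and 62.7 CPM).

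Of 25 known regulators of Zscan4, few were called. None of the 24 tested after Hira depletion was called higher and 2 were called lower, a share near the 5.4% of all tested genes. These were Uhrf1, which recruits the maintenance DNA methyltransferase (-0.67, adjusted p = 1.68e-06), and Chaf1b, a CAF-1 subunit (-0.63, adjusted p = 4.99e-06). Trim28, a corepressor, had -0.53 and Ssrp1, a subunit of the FACT chaperone, -0.45, both below the fold threshold. Neither Chaf1b nor Uhrf1 was called with library totals alone in place of TMM. The count was 1 without the first and 4 without the second Hira library. After Ubn1 depletion none of 24 was called in edgeR, and 2 had an adjusted p under 0.05. These were Tbx3, a transcription factor that acts upstream of Zscan4 (0.55), and Pcgf6, a polycomb subunit (-0.34). Without the second control or the second Ubn1 library 1 gene was called. After Ubn2 depletion 3 of 25 were called higher and 0 lower, near the 9.59% of all tested genes called higher: Tbx3 (0.71, adjusted p = 4.78e-07), Dppa2, an activator of Dux (0.67, adjusted p = 1.01e-06), and Gata3, with 13 reads in each Ubn2 library and 0 and 2 in controls. The pooled Gata3 level was 16.5 times that of control (95% interval from counting error 4.12 to 143, adjusted p = 0.00179). Gata3 passed the filter through its Ubn2 reads alone, so it had to be higher, and its call adds nothing on direction. The list median was -0.22, 0.02 and 0.03 after Hira, Ubn1 and Ubn2 depletion, beside 0.01, -0.00 and -0.00 over all genes tested.

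Other genes of the Zscan name, which carry a SCAN domain and zinc fingers, were set beside Zscan4. All 11 were tested after Hira and Ubn1 depletion, and 10 after Ubn2 depletion. In each comparison 1 was called higher. That is near the 10.8% and 9.59% of all tested genes called higher with Hira and Ubn2 depleted. With Ubn1 depleted, 1.53% of all tested genes were called higher. The gene called was Zscan22 each time. It had 6.96 and 8.61 CPM in control cells and rose by 0.79 after Hira depletion, 0.79 after Ubn1 depletion and 1.21 after Ubn2 depletion (adjusted p = 0.00269, 0.00289 and 1.81e-06). List medians were -0.06, 0.21 and 0.13. Of 12 genes of telomere maintenance and meiotic recombination, processes in which Zscan4 takes part, none was called higher. The share of all tested genes called lower was 5.4%, 1.56% and 8.75% with Hira, Ubn1 and Ubn2 depleted. Smc1b, a meiotic cohesin subunit, was called lower in each comparison, at -1.17, -0.61 and -1.13 after Hira, Ubn1 and Ubn2 depletion. Pot1a, a shelterin subunit, was called lower after Hira depletion (-0.68), and Dmc1, a meiotic recombinase, after Ubn2 depletion (-0.97). Zscan22 was not called after Hira depletion without the second Hira library, and neither Zscan22 nor Smc1b was called after Ubn1 depletion without the first control library. After Ubn2 depletion 2 other Zscan genes were called without the first control library.

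Finally, genes were ranked by how closely their pattern over the 8 libraries followed the summed copies. The measure was the root mean square difference of log2(CPM + 0.5), centred on each gene's mean, over 17827 genes with a mean of at least 0.5 CPM. The 8 nearest were Gm5039 (0.25), Gm21761 (0.27), Gm5662 (0.32), Gm2016 (0.34), Ptprv (0.34), Usp17le (0.34), Gm8300 (0.35) and Nkx2-9 (0.35). For the copies themselves the difference from their sum ran from 0.17 for Zscan4f to 0.51 for Zscan4b. Ptprv, a receptor-type phosphatase gene, was far more abundant than the others. It had 19.4 ± 1.5 CPM in control, 64.5 ± 0.629 after Hira depletion, 43.0 ± 2.83 after Ubn1 depletion and 83.8 ± 2.46 after Ubn2 depletion (SD, n = 2 each). Nkx2-9, a homeobox gene, had 1.61, 5.45, 4.60 and 7.17 CPM on average in the same order. Gm5662, Gm2016, Usp17le and Gm8300 were also in the list of 2-cell-like genes. The ranking describes these 8 libraries and was not tested.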

How the data were processed

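RNA-seq of 8 E14 ESC libraries was analysed. The authors deposited raw counts per gene, without normalization, in 3 tables. Per their notes and methods, Trim Galore was used for trimming, STAR for alignment to GRCm38 and featureCounts for counting. Versions, strand and multi-mapping settings are not given in the sources used here. The control counts were identical in the 3 tables (0 differing values) and were used once. Groups came from the sample titles.

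Counts were tested with edgeR 4.0.16 in R 4.3.3 (limma 3.58.1), using TMM, filterByExpr, the quasi-likelihood test and Benjamini-Hochberg adjustment over all rows. Only the 4 libraries compared entered each fit. For the sum, the 7 copies were replaced by 1 row. Standard errors are the log2 fold change divided by the square root of F. CPM intervals are exact Poisson intervals at 95%, and shares have exact Clopper-Pearson intervals. The smallest level that 3 counts can show lay between 0.0908 and 0.153 CPM. Replicates differed beyond counting noise (chi-square per degree of freedom 5.87 to 12.9). Transcript identity was computed with mafft 7.526 on GENCODE M21 sequences under Python 3.11.15.

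Named genes are the 7 copies, the 3 targets, up to 4 members per list with the smallest adjusted p in a comparison with control, and the 8 genes nearest to the sum. The markers of other cell types, Zik1, Gm6900, the genes Zscan4-ps1 and Zscan4-ps2, and list members called in few numbers or near the detection limit were named in addition. The members and lists were chosen with earlier results of these data known. On simulated counts for the Hira comparison, with 188 changed genes at a log2 fold change of 1.5 among 18493 tested, 92.6% were called, with 2 unchanged genes called.

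Alternatives were DESeq2 1.42.0, its size factors in edgeR, library totals alone, no filter, at least 10 counts in every library, adjusted p alone, all 8 libraries in one fit, replicate blocks, other sums of copies, and the omission of each library. The sum with Zscan4-ps1 and Zscan4-ps2 and the block with crossed numbers were chosen after seeing the data.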

Additional observations from a re-analysis of the deposited data

Results flagged for a closer look

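These results came from the direct tests between depletions, in which Zscan4 differed between the depleted groups. Between Ubn2 and Ubn1 depletion (Ubn2 minus Ubn1), the log2 difference was 0.90 for the summed copies, 0.90 for Zscan4a, 1.49 for Zscan4b, 1.09 for Zscan4c, 0.85 for Zscan4d, 0.95 for Zscan4f and 0.73 for Zscan4-ps3. Both Ubn2 libraries were above both Ubn1 libraries for these 6 copies, as for 29.6% of the genes tested. Between Hira and Ubn2 depletion (Hira minus Ubn2), it was -0.48 for the sum, -0.79 for Zscan4a and -0.68 for Zscan4-ps3. The libraries of Zscan4a, Zscan4b and Zscan4-ps3 did not overlap there, as for 33.6% of the genes tested in that direction. Between Hira and Ubn1 depletion (Hira minus Ubn1), it was 0.42 for the sum and 0.69 for Zscan4d. The libraries of Zscan4c, Zscan4d, Zscan4e and Zscan4f did not overlap, as for 32.3% of the genes tested. Why the depletions differed was not tested.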

How the results depend on the processing

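The rise of the summed copies against control kept its direction and stayed past the threshold in every alternative run. Without each library in turn its log2 fold change ranged from 1.72 to 2.63 after Hira depletion, 1.32 to 2.24 after Ubn1 depletion and 2.23 to 3.13 after Ubn2 depletion, and Ubn2 minus Ubn1 from 0.60 to 1.16. Hira minus Ubn2 ranged from -0.74 to -0.17 and missed the threshold with DESeq2 (-0.50), library totals alone (-0.41), the sum without Zscan4-ps3 (-0.45) and Zscan4c, Zscan4d and Zscan4f alone (-0.38). Hira minus Ubn1 ranged from 0.18 to 0.62 and missed it with DESeq2 (0.39), all 8 libraries in one fit (0.42) and those with a replicate block (0.41). Copies called were 2 with DESeq2 after Ubn1 depletion. For Hira minus Ubn2 they were 0 with DESeq2 and library totals, 1 with the block over 8 libraries and 0 to 3 without single libraries. For Hira minus Ubn1 they were 0 with DESeq2, all 8 libraries and either block, and 0 to 3 without single libraries. For Ubn2 minus Ubn1 they were 0 to 7 without single libraries. Signs turned only without single libraries. The ranges were -0.44 to 0.14 for Zscan4e and -0.50 to 0.084 for Zscan4d in Hira minus Ubn2, and -0.40 to 0.44 for Zscan4a, -0.0497 to 1.26 for Zscan4b and -0.0496 to 0.14 for Zscan4-ps3 in Hira minus Ubn1.

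Called 2-cell-like genes were 8 after Hira and 2 after Ubn1 depletion with DESeq2, 5 after each depletion with at least 10 counts in every library, and 8 to 14, 2 to 5 and 9 to 14 without single libraries after Hira, Ubn1 and Ubn2 depletion. The lowest came without the second control library for Hira and Ubn1 and without the second Ubn2 library for Ubn2. With the adjusted p alone, called regulators were 14, 2 and 13, other Zscan genes 3 after Hira and 4 after Ubn2 depletion, and telomere and recombination genes 6, 2 and 7. The share of all tested genes past the adjusted p alone was not taken. These counts therefore cannot be set against it and say nothing particular about the lists. With library totals alone after Hira depletion, regulators were 0 and telomere genes 1. Without single libraries, regulators were 1 to 4 after Hira and 0 to 1 after Ubn1 depletion, other Zscan genes 0 to 1, 0 to 1 and 1 to 2, and telomere genes 0 to 1 after Ubn1 depletion. The cause of these shifts was not tested. A library left alone in its group is assumed to vary like the other group.

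Same-numbered libraries did not deviate together, with correlations of -0.134 to 0.127 over 16261 genes, so the numbers were not taken to pair them. With the replicate block, the log2 fold change of the sum was 2.15, 1.78 and 2.66 with Hira, Ubn1 and Ubn2 depleted, and the number of copies called changed for Hira minus Ubn1 only, to 0. With crossed numbers, 2 copies were called in Hira minus Ubn2 and 2 in Hira minus Ubn1. Depth limits Zscan4b, Duxf3 and most 2-cell-like genes, with few reads in control libraries.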
